A study of Mus musculus with 10 samples.

Results

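Imprinted genes are transcribed mainly from the copy inherited from 1 parent. The 43 genes described here came from a list of 44 names, of which Zac1 is an older name of Plagl1, and were chosen by symbol, for their known imprinting in the mouse, among 55413 annotated genes of any type. They lie in 18 domains on the mouse genome build mm10, 17 of them on chromosome 7, and 26 are known for paternal and 17 for maternal expression. Which parental copy was accessible or transcribed was not measured, so the parental labels are background knowledge. For some genes, among them Ube3a (neurons), Gab1 and Ppp1r9a (placenta), imprinting is known only in limited tissues.

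Chromatin accessibility was measured by ATAC-seq, in which a transposase inserts sequencing adapters into open DNA, in immortalized mouse embryo fibroblasts (iMEF). All cells had lost exon 4 of both endogenous Ash2l alleles and lived on a lentiviral fusion of FKBP, HA tags and human ASH2L, a subunit of the complexes that methylate lysine 4 of histone H3. The cells, which the study names as its clone NG3, were left without dTAG-13 (ethanol control) or exposed for 30 min, 4 h, 8 h or 24 h to this compound, which causes degradation of the fusion protein. Each of the 5 groups had 2 replicates, and the accessible sites used here are 1 list of 153924 sites identified over all 10 libraries, with a position for each site and no read count, so neither a change after dTAG-13 nor the depth of a library could be read from it.

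In most imprinted domains, methylation of DNA laid down in the egg or the sperm marks a control region on 1 parental copy, and this mark survives the reprogramming after fertilization. The zinc finger protein ZFP57 binds the methylated hexamer TGCCGC in such regions and protects the mark. Several maternally marked control regions are also promoters of a paternally expressed gene or noncoding RNA, whereas the mark of the Igf2-H19 domain lies upstream of H19 and is laid down in sperm. A region with 1 methylated and 1 unmethylated copy can still be accessible on the unmethylated copy, and a list of sites does not tell the copies apart.

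The sequences of 6 sites at promoters known to carry a gametic mark are shown because they hold several copies of the hexamer. Each is the run of 200 bases with most matches in its site outside annotated exons, on the plus strand of GRCm38 (mm10), 5′ to 3′, with the hexamer in capitals on either strand (TGCCGC, or GCGGCA where it lies on the minus strand). In Plagl1 the run is chr10:13091058-13091257, in Airn chr17:12742193-12742392, in Snrpn chr7:60004692-60004891, in Nespas chr2:174295796-174295995, in Inpp5f chr7:128687887-128688086 and in Mest chr6:30737551-30737750.
Plagl1: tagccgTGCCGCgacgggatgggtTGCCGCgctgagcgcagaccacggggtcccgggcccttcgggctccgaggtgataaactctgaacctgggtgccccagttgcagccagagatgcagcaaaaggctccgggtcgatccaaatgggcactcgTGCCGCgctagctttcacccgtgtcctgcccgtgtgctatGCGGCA
Airn: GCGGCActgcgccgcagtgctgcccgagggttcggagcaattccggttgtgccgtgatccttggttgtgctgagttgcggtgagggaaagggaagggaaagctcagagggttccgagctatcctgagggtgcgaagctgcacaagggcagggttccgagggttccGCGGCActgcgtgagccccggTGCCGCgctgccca
Snrpn: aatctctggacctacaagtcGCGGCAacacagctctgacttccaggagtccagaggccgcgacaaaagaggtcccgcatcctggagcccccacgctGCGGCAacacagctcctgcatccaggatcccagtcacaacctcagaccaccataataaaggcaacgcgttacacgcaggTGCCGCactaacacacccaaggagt
Nespas: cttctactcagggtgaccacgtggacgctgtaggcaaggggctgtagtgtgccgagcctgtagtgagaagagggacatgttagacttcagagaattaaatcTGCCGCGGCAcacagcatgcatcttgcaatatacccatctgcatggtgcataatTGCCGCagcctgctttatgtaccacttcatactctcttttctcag
Inpp5f: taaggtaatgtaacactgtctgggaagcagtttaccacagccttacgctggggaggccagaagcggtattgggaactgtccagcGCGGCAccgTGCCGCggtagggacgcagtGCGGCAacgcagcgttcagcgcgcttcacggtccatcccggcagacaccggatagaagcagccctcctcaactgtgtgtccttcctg
Mest: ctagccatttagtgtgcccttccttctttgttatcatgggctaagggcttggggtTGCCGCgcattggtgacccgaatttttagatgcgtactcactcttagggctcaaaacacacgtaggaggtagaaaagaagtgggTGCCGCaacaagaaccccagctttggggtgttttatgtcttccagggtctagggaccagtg
The run of Plagl1 held 4 matches, that of Mest 2 and each of the others 3. In Nespas a pair of matches on opposite strands overlapped and was counted as 2. A match is a description of the letters and does not show that ZFP57 was bound.

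An accessible site lay within 1 kb of an annotated start site in 31 of the 43 imprinted genes (72.1%, 95% Wilson interval 57.3% to 83.3%). The background was 42% of all annotated genes, 70.8% of protein-coding genes and 40.6% of long noncoding genes. Among the 36 protein-coding imprinted genes 28 had a site (77.8%), and among the 7 noncoding ones 3 (42.9%, 15.8% to 75%). These shares lay near those of all genes of the same type, within the width of the intervals, and since genes of a domain share sites the intervals are too narrow. As a check of the cell label, 10 of 10 fibroblast markers such as Col1a1 and Pdgfra had a site at a start site, and 6 of 10 markers of other cell types did too, so that a site alone does not mark a cell type.

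Paternally and maternally expressed genes did not differ beyond their intervals. A site was present in 19 of 26 paternally expressed genes (73.1%, 53.9% to 86.3%) and in 12 of 17 maternally expressed genes (70.6%, 46.9% to 86.7%). The difference was 2.49 percentage points, with a 95% Newcombe interval from -22.6 to 29.6. Counted over single start sites, 69 of 141 (48.9%) were near a site in paternally and 72 of 146 (49.3%) in maternally expressed genes, beside 50.2% of the 132721 start sites of all genes. The sign of the difference turned when only protein-coding genes were kept, with 16 of 23 paternally (69.6%) and 12 of 13 maternally expressed genes (92.3%) having a site. It widened to 25 points in the paternal direction among genes not known to be imprinted only in limited tissues, with 12 of 16 (75%) against 4 of 8 (50%). The noncoding H19, Meg3, Rian and Mirg, all maternally expressed, had none, whereas the paternally expressed antisense RNAs Airn, Kcnq1ot1 and Nespas had 1 each or more.

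**Figure D1:**
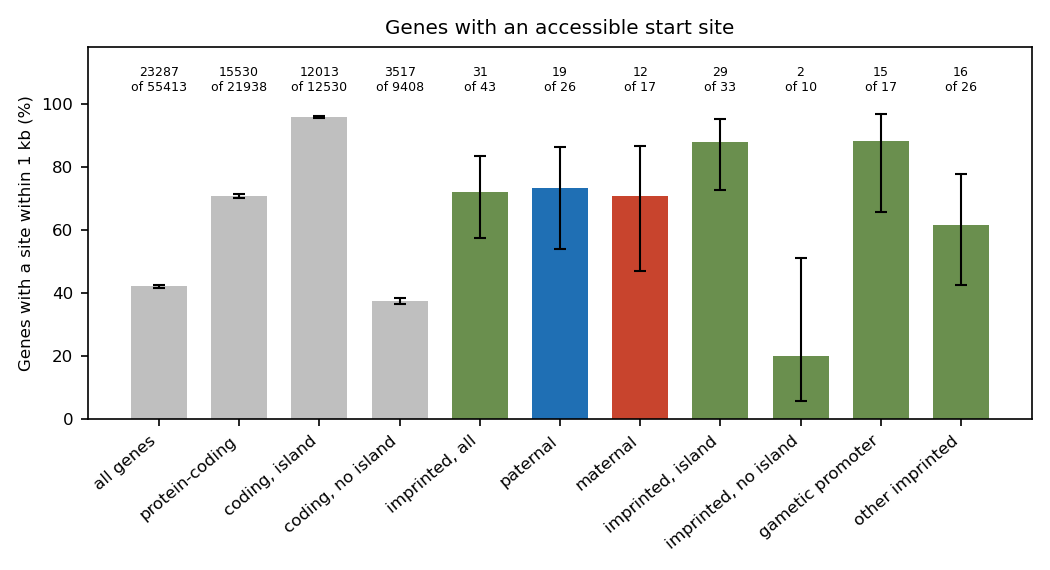
Share of genes with an accessible site within 1 kb of a start site, in percent, with 95% Wilson intervals as error bars and the counts above. Grey bars are background groups of annotated genes, and coloured bars are the imprinted genes, of which 73.1% of the paternally (blue) and 70.6% of the maternally expressed genes (red) had a site.

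CpG islands, stretches rich in CpG that mark many promoters, separated the listed imprinted genes more than the parental label did. This did not hold for the further imprinted genes given at the end. Of 33 imprinted genes with an island at a start site 29 had an accessible site (87.9%, 72.7% to 95.2%), against 2 of 10 without an island (20%, 5.67% to 51%), and these intervals did not overlap. All protein-coding genes showed the same order, with 95.9% of 12530 genes with an island and 37.4% of 9408 genes without. The 2 accessible genes without an island were Snrpn and Slc22a18, a transporter gene. The 4 genes with an island and no site were Zim1, Dlk1, Nnat and Nap1l5. Of 17 genes whose own promoter is known to carry a gametic mark 15 had a site (88.2%, 65.7% to 96.7%), and of the other 26 imprinted genes 16 (61.5%, 42.5% to 77.6%). Of the 17, Snrpn alone lacked an island, and the other imprinted genes without an island all belonged to the 26. Among the 4 genes with an island and no site, Nnat and Nap1l5 have such a mark, Zim1 and Dlk1 do not. Every other gene without a site lacked an island and belonged to the 26. Among genes with an island the contrast by mark was thus not seen, as equally many lacked a site with and without the mark.

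The 12 imprinted genes without a site within 1 kb lay at very different distances from the nearest one. Ddc, encoding dopa decarboxylase, was 1016 bp away, the microRNA host Mirg 1284 bp, the growth suppressor gene Ndn 1515 bp and H19 1929 bp. Of the 12, Ndn alone had a site within 1 kb with RefSeq start sites, which made 32 of 43. Ins2 (insulin) followed at 3207 bp, Nnat (neuronatin) at 3522 bp and Nap1l5 at 14469 bp. The remaining 5 genes had no site within 20 kb: Zim1, a zinc finger gene, was 33039 bp from a site, the small nucleolar RNA host Rian 37435 bp, the retrotransposon-derived Rtl1 94393 bp, the noncoding RNA Meg3 145468 bp and Dlk1, which encodes a Notch-like ligand, 234880 bp. Just inside the 1 kb window lay Usp29 at 868 bp, Peg3 at 709 bp and Slc22a18 at 624 bp. Ddc and Mirg would have been counted with a slightly wider window, and those 3 genes lost with a narrower one.

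Within 20 kb of their start sites the imprinted genes had a median of 5 sites (quartiles 2.5 and 8), as had protein-coding genes (quartiles 2 and 7). No site was found for 5 imprinted genes (11.6%), beside 13.4% of protein-coding genes. At the upper end, 5 imprinted genes had 15 sites or more (11.6%), beside 3.1% of protein-coding genes. These were Grb10, an adaptor of the insulin receptor, with 21 sites, Ddc and Gab1 with 17 each, and Igf2r and Airn with 15 each. Airn runs antisense to Igf2r from its second intron, and 8 sites were common to this pair, whereas the neighbors Ddc and Grb10 had 0 in common. Ddc thus had many sites around it and none within 1 kb of its 10 start sites. Genes with several start sites far apart cover more sequence, which bears on these numbers. From the outermost 5′ end alone, Grb10 and Airn had 9 sites each, Gab1 7, Igf2r 6 and Ddc 3. All 5 genes then fell below 15.

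**Figure D2:**
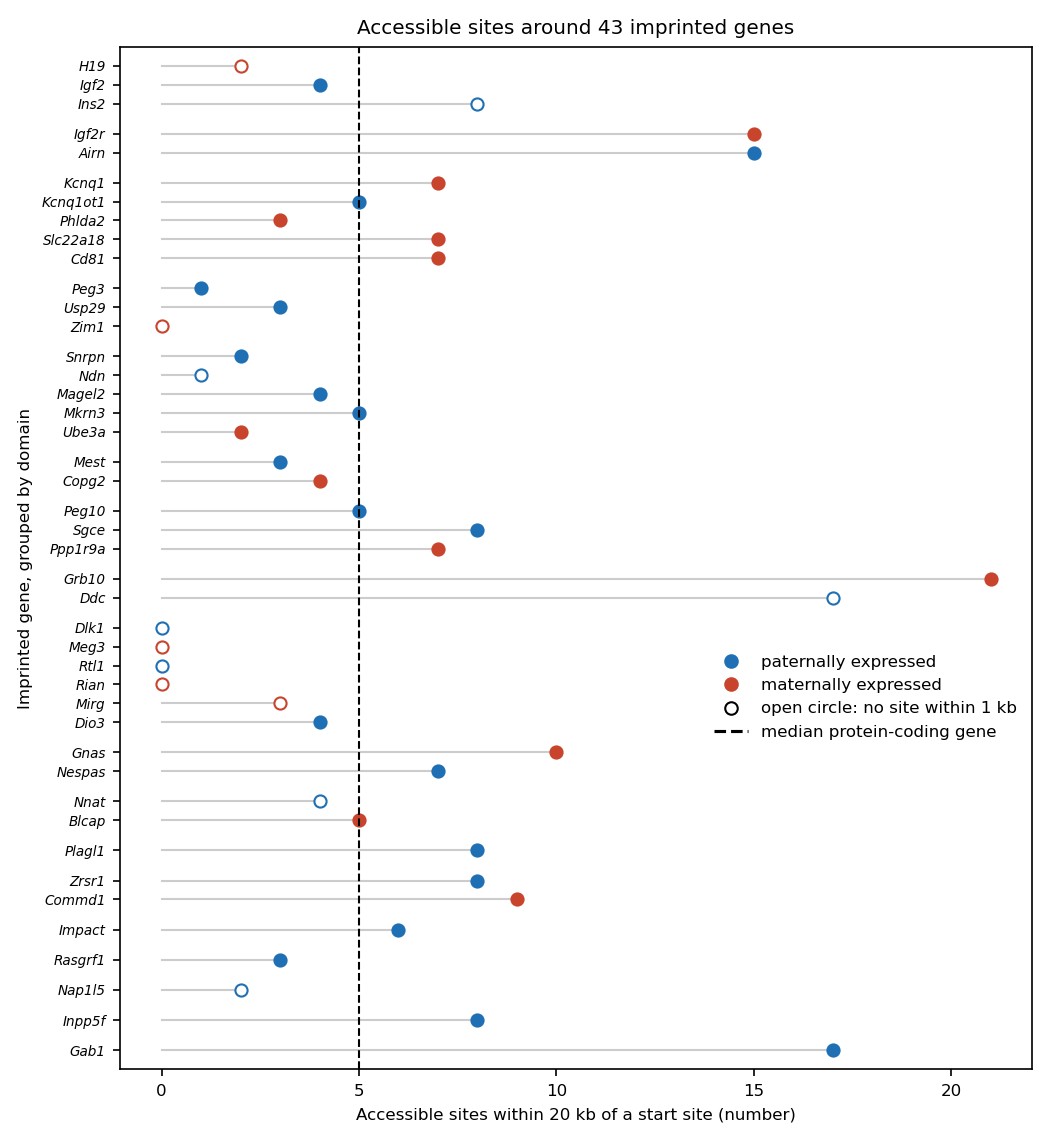
Number of accessible sites within 20 kb of a start site (horizontal axis) for each of the 43 imprinted genes, grouped by domain, with paternally expressed genes in blue and maternally expressed ones in red. Open circles are genes without a site within 1 kb, and the dashed line is the median of 5 sites of protein-coding genes. Zim1, Dlk1, Meg3, Rtl1 and Rian stand at 0 and Grb10 at 21.

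In the Igf2-H19 domain the fetal growth factor gene Igf2 and the noncoding H19 are known to compete for shared enhancers. Igf2 had 1 site at its start sites, chr7:142658761-142660902, whose 2142 bp lay within 1 kb of 4 of its 9 start sites. Ins2 had none at its 9 start sites. No site lay within 1 kb of the 7 start sites of H19, but 2 sites lay upstream of it: chr7:142580072-142581016 of 945 bp, beginning 1929 bp and ending 2873 bp from the gene's 5′ end, and chr7:142581578-142582156 of 579 bp, between 3435 and 4013 bp. This stretch upstream of H19 is where the sperm-derived mark and the repeats bound by the insulator protein CTCF are known to lie.

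The core of those repeats, written GGNGGCAG on either strand, occurred 2 times in the first and 3 times in the second of these sites, which is 3.28 matches per kb over their 1524 bp. Over all sites of the list the density was 0.372 per kb and 20.8% of sites held a match, and 12.6% of RefSeq promoters of 300 bases did. The longer CTCF consensus had 0 matches in both sites, beside 4.49% of all sites that held one. The core was not particular to these sites, since a site in the Gnas domain, chr2:174299281-174299913, held 6 in 633 bp. A run of 200 bases of each site is shown because the sites cover this region, from chr7:142580213-142580412 and chr7:142581753-142581952 on the plus strand of GRCm38, where the core lies on the minus strand and its complement is in capitals.
H19 upstream, first site: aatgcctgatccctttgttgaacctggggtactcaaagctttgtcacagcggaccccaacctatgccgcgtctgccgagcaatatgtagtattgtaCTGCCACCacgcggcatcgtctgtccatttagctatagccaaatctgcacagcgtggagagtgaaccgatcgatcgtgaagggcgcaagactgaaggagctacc
H19 upstream, second site: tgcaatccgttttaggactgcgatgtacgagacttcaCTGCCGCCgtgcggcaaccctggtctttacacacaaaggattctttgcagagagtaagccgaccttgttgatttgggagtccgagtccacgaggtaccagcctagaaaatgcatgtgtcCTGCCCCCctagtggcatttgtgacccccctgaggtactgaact
The first run held 1 match and the second 2, and the first match of the second run also holds the letters of the ZFP57 hexamer. Each of the 2 whole sites held 3 hexamers. The domain had 12 sites with 20 kb added on each side, or 5.77 per 100 kb, 1.05 times the density of chromosome 7.

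In the Kcnq1ot1 domain all 5 genes had a site. Kcnq1ot1, a paternally expressed antisense RNA known to silence its neighbors, begins inside Kcnq1 and had a site of 1715 bp over its start, chr7:143295313-143297027. Of the maternally expressed genes, the potassium channel gene Kcnq1 had chr7:143106762-143108656 (1895 bp), the placental growth restraint gene Phlda2 chr7:143500946-143503232 (2287 bp) and the tetraspanin gene Cd81 chr7:143052298-143054132 (1835 bp). Slc22a18 had a narrower one, chr7:143475725-143476529 (805 bp), 624 bp from 1 inner start site of its 5 and 1989 bp from its 5′ end. It was not counted with a 500 bp window, and neither with the outermost 5′ end alone nor by the middle of the site. Kcnq1ot1, Kcnq1, Phlda2 and Cd81 each had a site at distance 0 from a start site. The domain held 49 sites, or 9.99 per 100 kb, 1.81 times the density of the chromosome.

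The Igf2r-Airn domain had the same arrangement. Igf2r, whose product clears IGF2 from the cell surface, had a site of 1691 bp over its main start, chr17:12768518-12770208, and a second of 1290 bp over an inner start. Airn, which is known to silence Igf2r, had 4 sites at its start sites, the widest at chr17:12740926-12741800 (875 bp). Sites were dense here, with 14.7 per 100 kb, 2.54 times the density of chromosome 17.

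The Peg3 domain was the sparsest of the 18, with 4 sites or 1.19 per 100 kb, 0.216 times the density of chromosome 7. Peg3, a zinc finger gene, and Usp29, a deubiquitinase gene, are transcribed in opposite directions from a shared control region. They had 1 site between them, chr7:6729489-6729710, which at 222 bp was the narrowest at any imprinted start site. It was shorter than the lower quartile of all start-site sites (587 bp). Zim1 had no site and lay inside a stretch of 293.8 kb without any, and 443 of 150064 autosomal gaps between neighboring sites (0.295%) were that long or longer. That share counts gaps and not genes or sequence, of which a long gap can hold more. The other 3 sites of the domain held a match to the CTCF consensus each, as did 4.49% of all sites.

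In the Snrpn-Ube3a domain Snrpn, which encodes a splicing protein and carries the control region of the domain, had a site of 1546 bp over its inner start, chr7:60003788-60005333. Its upstream start was 98517 bp from any site. The MAGE family gene Magel2 had 2 sites, the wider at chr7:62376458-62377651 (1194 bp), and the makorin gene Mkrn3 had chr7:62419631-62420473 (843 bp). Ndn, which lies beside them, had its nearest site 1515 bp downstream of its only GENCODE start, and a site within 1 kb when RefSeq start sites were used. The maternally expressed Ube3a, a ubiquitin ligase gene, had chr7:59227973-59229837 (1865 bp), near 9 of its 16 start sites. The domain spans 3191 kb and had few sites for its length (3.68 sites per 100 kb, 0.667 times chromosome 7), with its longest gap of 438.9 kb between Ube3a and Snrpn. That gap held 174 annotated genes, of which 0 were protein-coding. Whether reads can be placed uniquely there was not tested, so the gap need not be closed chromatin.

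In the Dlk1-Dio3 domain 1 of 6 genes had a site at a start site. Dio3, which encodes an enzyme that inactivates thyroid hormone, had 3 sites there, the widest at chr12:110278765-110279567 (803 bp). The other 5 genes, paternally expressed Dlk1 and Rtl1 and maternally expressed Meg3, Rian and Mirg, had none. Dlk1, Meg3, Rtl1 and Rian lay together in a gap of 626.1 kb without a site, and 175 autosomal gaps (0.117%) were that long or longer. Here too the share is one of gaps, and the share of genes or sequence in such gaps was not counted. The gap held 61 annotated genes, of which 2 were protein-coding, and 4 CpG islands. Averaged over the whole domain sites were not sparse, with 5.07 per 100 kb, 0.935 times the density of chromosome 12. Without this domain 30 of the 37 remaining imprinted genes had a site (81.1%), and of these 18 of 23 paternally (78.3%) and 12 of 14 maternally expressed genes (85.7%).

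**Figure D3:**
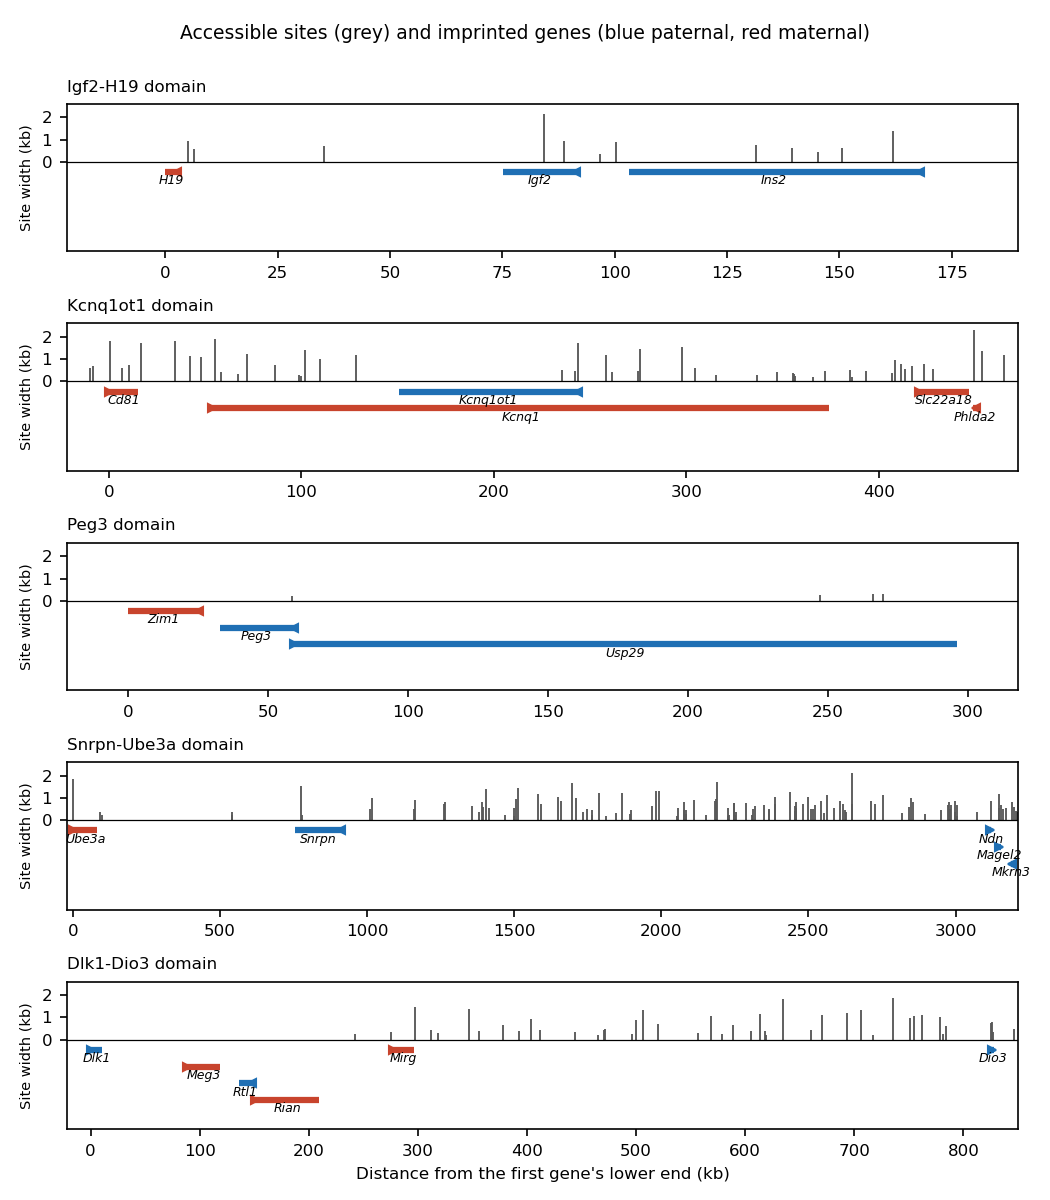
Accessible sites (grey lines, height is the width of the site in kb) along 5 imprinted domains, with distance in kb from the lower end of the first gene. Paternally expressed genes are blue, maternally expressed genes are red, and arrowheads mark the 5′ end and direction. The Dlk1-Dio3 map is empty from Dlk1 past Rian and the Peg3 map holds 4 narrow sites.

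In the Peg10 domain the retrotransposon-derived Peg10 and the sarcoglycan gene Sgce, which face away from each other, shared a site of 2091 bp, chr6:4746567-4748657. Ppp1r9a, encoding neurabin, had chr6:4902552-4904582 (2031 bp). The Mest domain had the widest site of all imprinted start sites, 2610 bp at chr6:30736986-30739595, over 3 start sites of Mest, a gene of the hydrolase family. The outermost start of Mest was 1022 bp from a different site. The maternally expressed neighbor Copg2, a coatomer subunit gene, had a site of 1460 bp.

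Grb10 and Gnas each had 5 sites at several promoters. In Grb10 the widest was chr11:12037111-12038628 (1518 bp) at the upstream promoter, and the site chr11:12025398-12026632 (1235 bp) lay at the inner promoter, with a CpG ratio (observed to expected) of 1.1, the highest of the 55. Gnas, encoding a G protein alpha subunit, had chr2:174329474-174331161 (1688 bp) at its main promoter, and sites of 1019 bp, 331 bp and 923 bp at 3 promoters upstream of it. The last of these was shared with the antisense RNA Nespas, whose own start was covered by chr2:174294513-174296074 (1562 bp). Grb10 and Gnas were each labeled maternal as a whole gene. Their promoters were not labeled singly, so the counts by parental label do not separate them.

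The remaining promoters with a gametic mark were mostly accessible. Plagl1, a zinc finger factor gene, had chr10:13090206-13091521 (1316 bp). Inpp5f, a phosphatase gene whose inner variant is the imprinted one, had chr7:128610754-128612099 (1346 bp) at its upstream promoter and a site of 749 bp at the inner promoter, chr7:128687820-128688568. Zrsr1, a splicing factor-like gene within an intron of Commd1, had chr11:22971722-22973098 (1377 bp). This site also covered an inner start of Commd1, whose 5′ end had a separate site of 1308 bp. Impact, a regulator of the kinase GCN2, had chr18:12972896-12974703 (1808 bp). Nnat, inside an intron of Blcap, and Nap1l5 had none, and of the Nnat-Blcap pair only Blcap had a site (1786 bp). Outside these, Rasgrf1, a Ras exchange factor gene, had a site of 610 bp and the adaptor gene Gab1 one of 2351 bp, in a neighborhood 2.67 times as dense in sites as chromosome 8.

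Among the 12 domains with genes of both parental labels, the share of accessible genes was higher for the paternally expressed genes in 3 (Igf2-H19, Peg3 and Dlk1-Dio3), for the maternally expressed ones in 3 (Snrpn-Ube3a, Grb10 and Nnat) and equal in 6. With RefSeq start sites, where Ndn had a site, Snrpn-Ube3a became equal and the counts were 3, 2 and 7. In 11 of the 18 domains sites were denser than on the whole chromosome. The domains were drawn around genes, whereas the chromosome includes sequence far from genes. Windows around other genes were not counted, so this number has no background of its own kind. All genes were accessible in 6 of the 12 domains with several genes. In all, 5 sites were shared by 2 imprinted genes each.

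The 55 different sites at imprinted start sites had a median of 1166 bp in width, with quartiles of 666 and 1625 bp. The corresponding values for all 26427 sites at start sites were 1061, 587 and 1488 bp. Sites of paternally expressed genes had a median of 888 bp (31 sites) and those of maternally expressed genes 1290 bp (27 sites). Among sites that overlapped a CpG island the medians were 1058 bp and 1518 bp, beside 1449 bp over all such sites. The quartiles overlapped, from 666 to 1462 bp for the paternally and from 780 to 1690 bp for the maternally expressed genes. The imprinted sites had a median GC content of 56.6% and overlapped an island in 63.6%, beside 53.8% and 44.8% over all start-site sites.

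The ZFP57 hexamer had a higher density in imprinted start sites than in start sites at large, mostly in genes with a gametic mark. The 55 sites held 81 matches, 1.26 per kb, beside 0.542 per kb over all sites at start sites, a ratio of 2.32. Sites of genes with a gametic promoter mark had 2.17 per kb (71 matches in 30 sites) and those of the other imprinted genes 0.326 per kb. In the middle 200 bp of the sites the ratio was 1.48 (11 matches), and among sites overlapping a CpG island it was 1.78. Restricted to those island sites, the densities were 2.46 per kb with and 0.305 without a gametic mark, beside 0.754 over all such sites. A match was present in 28 of the 55 imprinted sites (50.9%), in 34.9% of all start-site sites, in 10.5% of all sites and in 11.6% of RefSeq promoters of 300 bases. Among sites overlapping an island the share with a match was 62.9% in imprinted and 61.6% in all start-site sites. Since ZFP57 is known from such control regions, this density describes known sequences in the list.

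The site of Mest held 12 matches and that of Snrpn 10, and sites with 10 or more were 4 of 26427 (0.0151%). Plagl1 and the inner promoter of Inpp5f held 6 each and Impact 5. Sites with at least 5 matches were thus 5 of 55 (9.09%) among imprinted start sites and 280 (1.06%) among all, or 2.35% of those overlapping an island. Airn held 4 in 1 site and 3 in another, the inner promoter of Grb10 held 4, and Kcnq1ot1, Nespas and Peg10 held 3 each. The shared site of Peg3 and Usp29 held 1, within its 222 bp. Wide sites hold more matches by their length, but Gab1, at 2351 bp, held 0.

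**Figure D4:**
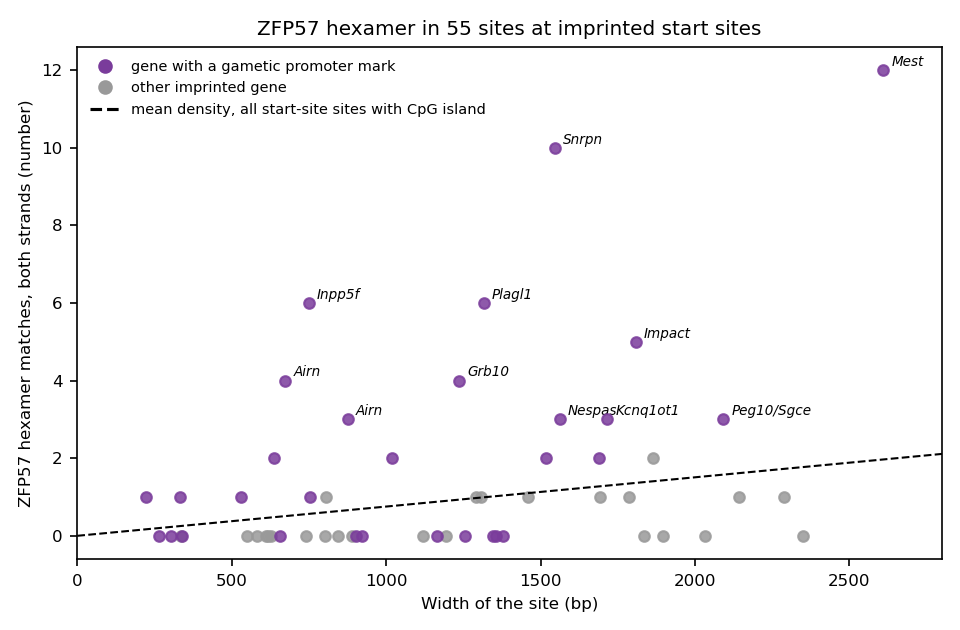
Number of ZFP57 hexamer matches on both strands (vertical axis) against the width in bp of each of the 55 accessible sites at imprinted start sites. Violet points belong to genes with a gametic promoter mark and grey points to other imprinted genes, and the dashed line is the mean density of all start-site sites with a CpG island, 0.754 per kb. Mest with 12 and Snrpn with 10 matches stand above the rest.

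Of 38 further imprinted genes outside the list, 33 had a site within 1 kb (86.8%, 72.7% to 94.2%). The 5 without were Zim3, Zfp264, Slc22a2, Slc22a3 and Gatm, of which Zim3 and Zfp264 belong to the Peg3 region and the 2 transporter genes to the Igf2r region. Of these 5, Slc22a2 alone lacked a CpG island. All other genes of the 38 without an island had a site: Trpm5, Tspan32, Osbpl5, Th, Slc38a4, Asb4, Tfpi2, Pon3, Dcn, Htr2a and Gpr1. The contrast by island among the listed genes was thus not seen here. Of 14 genes for factors that set or keep imprints, 13 had a site (92.9%), and the exception was Ctcfl, a germ cell relative of CTCF. The background was 42% of all annotated genes, 70.8% of protein-coding genes and 95.9% of protein-coding genes with a CpG island. The 14 genes were all protein-coding, and all but Dnmt3l, Dppa3 and Ctcfl had an island.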

How the data were processed

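ATAC-seq libraries of iMEF cells were analyzed in 5 groups of 2 replicates. According to the methods and the submitters' processing notes, the authors used Trim Galore for trimming, BWA for alignment to mm10, SAMtools for filtering as recommended by ENCODE, Picard to merge replicates and MACS2 to call narrow peaks. Versions, the peak threshold, the shift for the transposase cut and how samples' sites were joined are not given in the sources used here, and each could change the number and edges of sites. The deposited list gives the chromosome, start and end in bp of each site, pooled over all samples, with no count or score. Depth is therefore unknown here, no library can be compared with another, no differential test was possible, and the intervals printed cover counting error only.

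Starts were taken as counted from 0 and ends as exclusive, and coordinates are printed with 1 as the first base. In total, 0 sites ended beyond their chromosome in GRCm38. Start sites were those of all transcripts of GENCODE M21. A gene was accessible when a site overlapped the 1 kb on either side of a start site, and sites within 20 kb were counted. CpG islands were segments outside soft-masked repeats of at least 200 bp with a ratio of observed to expected CpG over 0.6 and a GC fraction over 0.5. Domains reached from the first to the last listed gene with 20 kb added, and gaps were measured between neighboring sites. Unknown bases (N) were left out of the length of a chromosome but not of a domain or gap. How well reads can be placed in a domain or gap was not tested. Matches of TGCCGC, GGNGGCAG and the core CTCF consensus, which holds ambiguous letters, were counted on both strands, overlapping ones included. The genome and promoter sequences are those of RefSeq for GRCm38. The scripts ran under Python 3.11.15 with pysam 0.24.0, Numba 0.67.0, SciPy 1.17.1 and NumPy 2.4.6 and were tested on simulated data, where all 2000 planted genes and 500 planted motifs were recovered.

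The imprinted genes and all gene lists were chosen with earlier results of these data known, so shares are given beside those of all genes without p-values. Parental labels, breadth of imprinting and gametic marks were assigned from general knowledge, per gene and not per promoter. Coordinates are given for the widest site of genes in domains with 3 or more listed genes and of genes with a gametic promoter mark, and all genes without a site are named. The printed runs were kept outside annotated exons, and the runs upstream of H19 and the GGNGGCAG count were chosen after the values were seen. Alternatives changed the window, the start sites, the width of sites, the gene types and the islands.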

Additional observations from a re-analysis of the deposited data

Results flagged for a closer look

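The list held 242 sites on scaffold and patch sequences that are not part of the assembled chromosomes. They were singled out because no comparison used them, and no control sample exists for them in a list without values per library.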

How the results depend on the processing

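No paired analysis was possible because single libraries have no values here, and no replicate could be left out for the same reason. Of 56 alternative values, 48 kept their direction and stayed within the interval, quartiles or 1.5-fold range of the value reported, 3 moved and 5 reversed. The share of imprinted genes with a site ranged from 62.8% (outermost 5′ end only) to 81.4% (2 kb window). All 5 reversals concerned the paternal minus maternal difference of 2.49 points, which became -1.58 with a 2 kb window, -9.05 without sites narrower than the median, -3.17 with the outermost 5′ end, -22.7 with protein-coding genes only and -7.45 without the Dlk1-Dio3 domain. In the other direction it became 25 without genes imprinted in limited tissues, 8.37 by site midpoints, 6.33 with RefSeq start sites and 0.679 with a 500 bp window. The cause was not tested. All these values lay within the interval of the difference, except that of protein-coding genes, just below it. The maternal share moved to 92.3% with protein-coding genes only, where the 4 noncoding genes without a site drop out. The median number of sites moved to 8 within 50 kb, beside 10 for protein-coding genes. The hexamer ratio moved to 1.48 in the middle 200 bp of sites. Start sites from RefSeq, the removal of the Dlk1-Dio3 domain and the restriction to CpG island sites were added after the data were seen. A site absent from the list may lie below the authors' threshold at an unknown depth.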
